A study of Mus musculus with 10 samples.

Results

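The Dlk1-Meg3 domain is an imprinted gene cluster on distal mouse chromosome 12, and 6 of its genes, Dlk1, Meg3, Rtl1, Rian, Mirg and Dio3, were taken by symbol from the 52632 genes of the raw count table. Expression was measured by poly(A) RNA-seq in 10 neural stem cell cultures, each grown from the cortex of 1 mouse embryo at E14.5 as an adherent layer with EGF and basic FGF. The embryos were heterozygous for Smchd1 GFP-E147A, a GFP-tagged allele with an amino acid change in the ATPase of the chromatin silencing protein SMCHD1, or were Smchd1 +/+. There were 2 female E147A/+, 2 female +/+, 3 male E147A/+ and 3 male +/+ cultures. All females of both genotypes also carried XistdeltaA on 1 X chromosome, and males were XY. All embryos had a Castaneus (Cast) father and a 129/C57 F1 mother, so the labels give Cast alleles as paternal. They came from 4 litters: litter 1 gave female E147A/+ replicate 1, male E147A/+ replicates 1 and 2 and male +/+ replicate 2; litter 2 gave female E147A/+ replicate 2; litter 3 gave both female +/+ cultures, male E147A/+ replicate 3 and male +/+ replicate 3; litter 4 gave male +/+ replicate 1. In no culture is the wild-type Smchd1 allele absent.

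Imprinted genes are expressed mainly from the chromosome inherited from 1 parent. In this domain the protein-coding genes Dlk1, Rtl1 and Dio3 are known as paternally expressed, while the noncoding transcripts Meg3, Rian and Mirg come from the maternal chromosome, where a control region upstream of Meg3 is unmethylated. Rian and Mirg host clusters of small nucleolar RNAs and microRNAs, and several microRNAs made from the maternal strand lie opposite Rtl1 and are perfectly complementary to its transcript.

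The genes lie on chromosome 12 in the order Dlk1 (chr12:109452823-109463336, + strand), Meg3 (chr12:109541001-109571726, +), Rtl1 (chr12:109589193-109600330, -), Rian (chr12:109603808-109661716, +), Mirg (chr12:109729764-109749460, +) and Dio3 (chr12:110279068-110281097, +), all in GRCm38. RefSeq promoters, 250 bases before to 50 bases after a start site, were matched for 5 of the 6 genes. The Meg3 and Rian promoters (GRCm38.p6) are shown because the ratio of these RNAs is one of the comparisons made. The first is at chr12:109540746-109541045 and the second at chr12:109603695-109603994, both on the + strand. Capitals mark TGACGTCA, the cAMP response element, and the hexamer TGCCGC bound by the imprint protein ZFP57, here read on the opposite strand as GCGGCA.
Meg3 promoter: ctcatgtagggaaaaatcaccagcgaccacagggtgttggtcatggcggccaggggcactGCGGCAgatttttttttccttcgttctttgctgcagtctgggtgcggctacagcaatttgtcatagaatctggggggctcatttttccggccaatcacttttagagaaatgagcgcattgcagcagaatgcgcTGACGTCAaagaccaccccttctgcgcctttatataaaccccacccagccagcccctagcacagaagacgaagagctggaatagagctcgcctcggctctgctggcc
Rian promoter: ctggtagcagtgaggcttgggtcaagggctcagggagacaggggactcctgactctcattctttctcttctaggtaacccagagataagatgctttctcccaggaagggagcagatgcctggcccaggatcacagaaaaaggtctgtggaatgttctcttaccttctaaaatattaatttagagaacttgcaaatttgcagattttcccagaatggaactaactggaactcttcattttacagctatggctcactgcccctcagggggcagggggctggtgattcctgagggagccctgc
Both strands of each promoter were searched for TGACGTCA, TGCCGC, the GC box GGGCGG and TATAAA, none of which contains another. In the Meg3 promoter TGACGTCA began at -57 and GCGGCA at -190, counted from the start site. Its TATAAA began at -25 and overlapped a match on the other strand. Of 32851 RefSeq promoters of the same length, 1.79% held TGACGTCA, 11.6% TGCCGC, 35.7% GGGCGG and 13.6% TATAAA. None of the 4 motifs was in the Rian, Mirg or Dlk1 window. The Mirg window, at chr12:109734731-109735030, lies inside the Mirg gene as placed above and not at its start. The Meg3 promoter held 13 CpG dinucleotides, the Dlk1 promoter 9, the Mirg promoter 10, the Rian promoter 0 and the Dio3 promoter 25, against a median of 7 over all promoters. A second Meg3 promoter in the table, at chr12:109545148-109545447, held 1 CpG and none of the 4 motifs.

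RefSeq lists 114 mature microRNAs of 61 microRNA genes between Dlk1 and Dio3, with 104 different seeds (bases 2 to 8). Of these, 11 from 6 genes were perfectly complementary to the 6358-nucleotide Rtl1 transcript. The following 4 are shown as examples of that pairing, with the seed in capitals.
mmu-miR-127-3p: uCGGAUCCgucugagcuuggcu
mmu-miR-433-3p: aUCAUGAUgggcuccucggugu
mmu-miR-434-3p: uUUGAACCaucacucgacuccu
mmu-miR-136-5p: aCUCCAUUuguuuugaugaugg
The match of miR-127-3p covered bases 2642 to 2663 of the Rtl1 transcript, that of miR-433-3p bases 3749 to 3770, that of miR-434-3p bases 965 to 986 and that of miR-136-5p bases 199 to 220. Seeds were shared by 20 of the 114 microRNAs, among them the following pair from the cluster between Rian and Mirg.
mmu-miR-379-3p: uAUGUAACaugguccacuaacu
mmu-miR-411-3p: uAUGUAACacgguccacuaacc
Poly(A) libraries do not capture mature microRNAs: 8 of 61 microRNA rows in the span held any count, and the highest count in a library was 3.

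The count tables held 20648916 to 44519020 counts per library, and libraries of a group differed by a chi-square of at least 35.7 per gene, so none was counted as a duplicate. The 8 neural stem cell markers summed to 4673 to 6724 CPM (counts scaled to the library total), most of it from Vim, Fabp7, Slc1a3 and Nes. The transcription factor gene Sox2 was at 178 to 238 CPM, Pax6 at 23.5 to 52.4 CPM, Sox1 at 18.04 to 28.0 CPM and Hes5 at 2.66 to 28.9 CPM. Markers of the oligodendrocyte lineage summed to 632 to 1027 CPM, neuronal markers to 544 to 1035 CPM and microglial markers to at most 0.402 CPM. Smchd1 itself was counted in every library at 94.2 to 192 CPM, so its level does not check the genotype labels. Counts assigned to the 129 and Cast alleles were analysed for the 4 female cultures. Female E147A/+ replicate 1 went against the labelled cross around the domain: its median Cast share was 0.129% over 75 other genes within 5 Mb, against 47.8% to 49.1% in the remaining 3 female cultures. In it 71 of the 75 genes were below 5% Cast, and the 4 others were Crip1 (20.8%), Tedc1 (27.7%) and Tmem121 (44.3%), more than 3.6 Mb from the Meg3 start, and the pseudogene Mpc1-ps, which was at 88.8% or more Cast in all 4 cultures.

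By their medians Rian and Meg3 were the most abundant of the 6 genes, while Dio3 and Rtl1 had few or no counts. Per kilobase of exon, the median over the 10 libraries was 1.28 RPKM for Rian, 0.893 for Meg3, 0.377 for Dlk1 and 0.0639 for Mirg. The order of Rian and Meg3 differed between libraries and their ranges overlapped, at 0.209 to 2.36 RPKM and 0.119 to 3.07 RPKM, whereas Mirg, at no more than 0.105 RPKM, was below the range of Dlk1, at 0.276 to 0.478 RPKM. In 3 of the 10 libraries, female E147A/+ replicate 2, female +/+ replicate 1 and male +/+ replicate 3, Dlk1 was above both Meg3 and Rian per kilobase. Dio3, which encodes the deiodinase that inactivates thyroid hormone, had 0 counts in all 10 libraries, which allows up to 3 counts, or 0.0693 to 0.141 CPM by depth. Rtl1, a retrotransposon-derived gene needed in the placenta, had 6 counts in all, spread over 4 libraries. Dio3 and Rtl1 did not pass the filter on low counts, and Dlk1, Meg3, Rian and Mirg did. The rows of Meg3, Rtl1, Rian and Mirg overlap other annotated rows, 6 of the 7 at Rtl1 on the opposite strand, and the use of strand in counting is not given in the sources used here.

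Dlk1, a transmembrane relative of the Notch ligands, was low and even. Its level was 1.94 and 1.71 CPM in female E147A/+, 1.56 and 2.05 CPM in female +/+, 2.71, 2.41 and 2.33 CPM in male E147A/+ and 2.35, 2.21 and 1.86 CPM in male +/+ replicates 1 to 3. The groups overlapped, and the highest library was 1.73-fold above the lowest.

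Meg3, the long noncoding RNA that heads the maternal transcripts, varied widely. Its level was 25.7 and 4.37 CPM in female E147A/+, 2.77 and 13.8 CPM in female +/+, 37.1, 55.5 and 13.1 CPM in male E147A/+ and 18.5, 53.6 and 2.16 CPM in male +/+. High and low cultures occurred in all groups except that no male E147A/+ culture was below 13.1 CPM, and the range was 25.7-fold over the 10 libraries.

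Rian, a host of small nucleolar RNAs, ranged 11.3-fold. It was at 12.8 and 3.81 CPM in female E147A/+, at 3.92 and 26.0 CPM in female +/+, at 20.8, 29.3 and 43.1 CPM in male E147A/+ and at 27.0, 25.7 and 4.35 CPM in male +/+. Mirg, a host of microRNAs, was at 0.462 and 0.0462 CPM in female E147A/+, at 0.0318 and 0.385 CPM in female +/+, at 0.589, 0.636 and 0.765 CPM in male E147A/+ and at 0.690, 0.469 and 0 CPM in male +/+. Mirg rested on at most 23 counts in a library.

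The same 3 cultures were lowest for all 4 genes. Female E147A/+ replicate 2, female +/+ replicate 1 and male +/+ replicate 3 had Meg3 at 2.16 to 4.37 CPM, Rian at 3.81 to 4.35 CPM and Mirg at 0 to 0.0462 CPM. In the other 7 cultures Meg3 was at 13.1 to 55.5 CPM, Rian at 12.8 to 43.1 CPM and Mirg at 0.385 to 0.765 CPM. Dlk1 followed the same order by a small margin, at 1.56 to 1.86 CPM in the 3 and 1.94 to 2.71 CPM in the 7. The 3 cultures were of both sexes, both genotypes and litters 2 and 3, and in litter 3 the other 2 cultures were in the high range. These ranges were read from the data, so no test was made between them. How many of all tested genes had the same 3 cultures lowest was not counted. Over the 10 cultures, 260 genes outside the domain had a Pearson's r of log2 CPM above 0.9 with Rian and 308 with Mirg. A similar profile was thus common outside the domain.

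**Figure D1:**
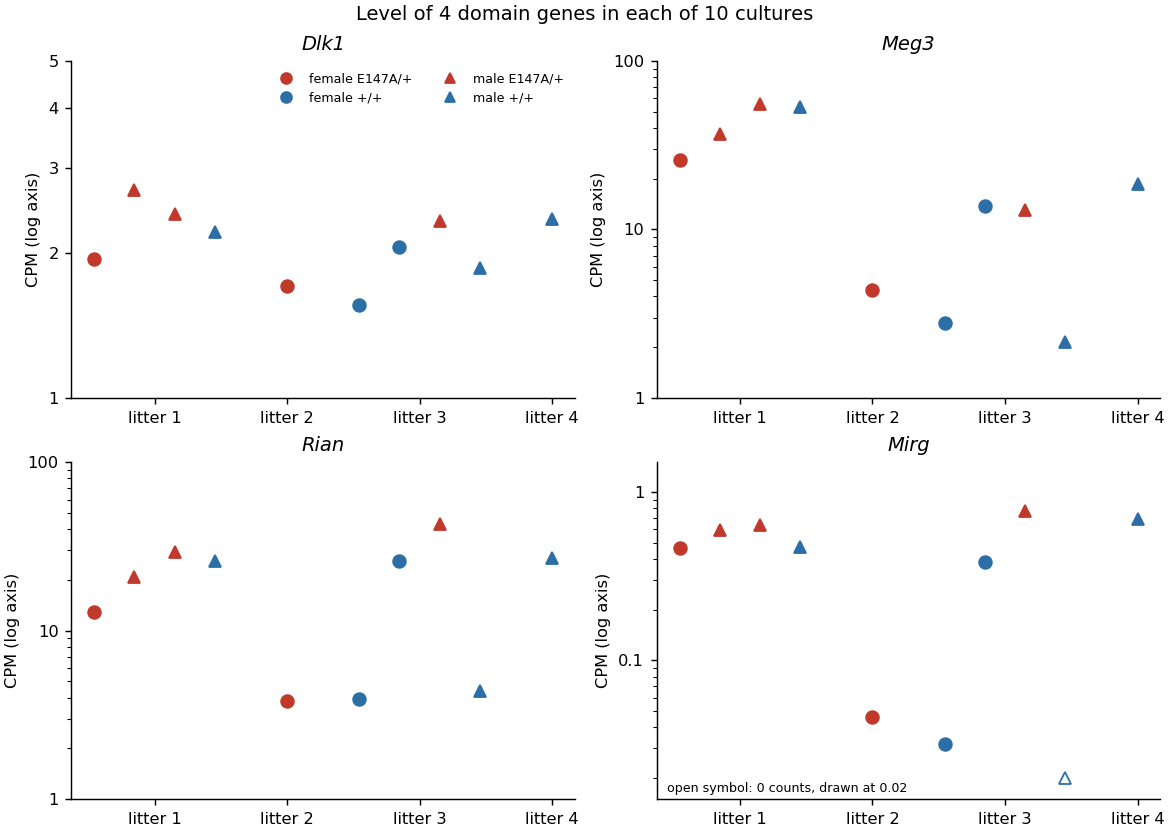
Level of Dlk1, Meg3, Rian and Mirg in CPM on a log axis, 1 symbol per culture, arranged by litter (x axis) and marked by sex and genotype. The culture of litter 2 and 2 of the 4 of litter 3 are low for Meg3, Rian and Mirg, and the 4 cultures of litter 1 are all in the high range.

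Because the levels fell into 2 separate ranges, relations between genes were computed within the 7 high cultures only. Pearson's r of log2 CPM was 0.57 for Rian and Mirg, with Spearman's rho 0.71 and exact permutation p of 0.181 and 0.0881. For Meg3 and Rian r was -0.25 and rho -0.29, with exact permutation p of 0.605 and 0.556. For Dlk1 and Mirg r was 0.64 and rho 0.61, with exact permutation p of 0.123 and 0.167. Of the 6 pairs none passed after Benjamini-Hochberg adjustment in these two-sided exact tests, the lowest adjusted p being 0.542 for r and 0.50 for rho. Without the 2 cultures farthest from the median of the gene named first, r was 0.099 for Rian and Mirg, -0.69 for Meg3 and Rian and 0.89 for Dlk1 and Mirg. Leaving out the cultures farthest from the median narrows the range of a gene, which can by itself change r. With 1 culture left out, r of Rian and Mirg was 0.31 to 0.79.

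Variation between cultures of 1 group was large for the noncoding RNAs and small for Dlk1. The pooled SD of log2 CPM within groups was 1.78 for Meg3, 1.48 for Mirg, 1.30 for Rian and 0.17 for Dlk1, against a median of 0.37 over 17110 tested genes. Of all tested genes, 99.0% had a smaller SD than Meg3, 97.5% a smaller one than Mirg and 95.7% a smaller one than Rian, but only 11.2% a smaller one than Dlk1. When deviations were taken within litters instead, the SD was 1.06 for Meg3, 1.28 for Mirg, 1.30 for Rian and 0.22 for Dlk1, against a median of 0.31 over all tested genes. By that measure 94.3% of genes had a smaller SD than Meg3, 97.3% than Mirg, 97.4% than Rian and 32.2% than Dlk1. The SD of Meg3 was thus 1.06 within litters and 1.78 within groups, while that of Rian was 1.30 both ways.

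**Figure D2:**
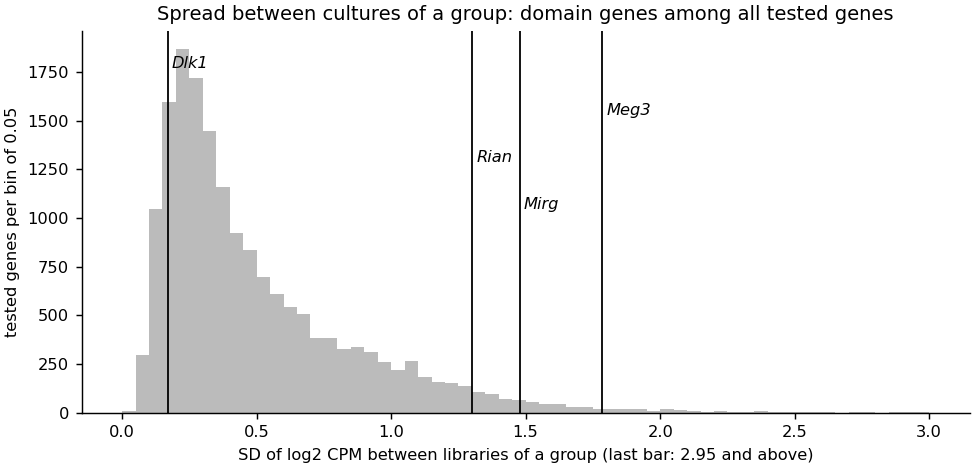
Number of tested genes (y axis) by the SD of log2 CPM between libraries of 1 sex and genotype group (x axis), with vertical lines at 4 domain genes. Dlk1 lies left of the median of 0.37, and Rian, Mirg and Meg3 lie in the right tail at 1.30, 1.48 and 1.78.

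The comparison of E147A/+ with +/+ asks whether 1 copy of the ATPase-mutant allele changed expression of the domain. None of the 4 tested genes was called in edgeR's quasi-likelihood test over both sexes, where 0.0818% of all tested genes were called at an adjusted p of at most 0.05. For Meg3 the log2 difference, E147A/+ minus +/+, was 0.68 (SE 0.82, adjusted p = 0.870 in edgeR), or 1.61-fold. The E147A/+ and +/+ libraries of all 4 genes overlapped in both sexes, whereas over all tested genes those of females were separated in 21.8% (E147A/+ higher) and 19.3% (lower) and those of males in 3.2% and 3.96%. For Mirg it was 0.51 (SE 0.93, adjusted p = 0.912 in edgeR), for Dlk1 0.11 (SE 0.25, adjusted p = 0.932) and for Rian -0.07 (SE 0.62, adjusted p = 0.986). The SE was thus 0.62 to 0.93 for the noncoding RNAs and 0.25 for Dlk1.

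In females, where 0.0117% of tested genes were called, 0 of the 4 domain genes passed, with log2 fold changes of 0.01 (SE 0.39) for Dlk1, 0.86 (SE 1.27) for Meg3, -0.85 (SE 0.96) for Rian and 0.25 (SE 1.45) for Mirg. In males, where 0.0234% were called, 0 of the 4 passed, with 0.22 (SE 0.32) for Dlk1, 0.51 (SE 1.03) for Meg3, 0.71 (SE 0.78) for Rian and 0.78 (SE 1.15) for Mirg. The female and male differences were compared by an interaction term, which called 0% of tested genes in edgeR, 314 genes at an unadjusted p under 0.05 and 2 genes in DESeq2. For Rian, whose fold change had opposite signs in the sexes, the interaction was -1.55 (SE 1.24, adjusted p = 0.999 in edgeR). In each of these 4 contrasts 0 of the 4 domain genes had an unadjusted p under 0.05, and DESeq2 called 0. Over all tested genes the share with such a p in edgeR was 5.9% over both sexes, 4.36% in females, 3.44% in males and 1.84% for the interaction, and DESeq2 called 113, 46, 48 and 2 genes, so 0 of 4 is near the background. Leaving out female E147A/+ replicate 1 turned the estimate of Meg3 over both sexes to -0.21 and that of Mirg to -0.66. Without female +/+ replicate 2 the estimate of Rian was 0.90. Male littermates of both genotypes occurred in litters 1 and 3. In litter 1, Meg3 was at 37.1 and 55.5 CPM in E147A/+ and 53.6 CPM in +/+, and Rian at 20.8 and 29.3 CPM against 25.7 CPM. In litter 3, Meg3 was at 13.1 against 2.16 CPM and Rian at 43.1 against 4.35 CPM. Dlk1 and Mirg were higher in E147A/+ in all 3 of these pairings, as were 17.6% of tested genes, and Meg3 and Rian in 2 of the 3.

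**Figure D3:**
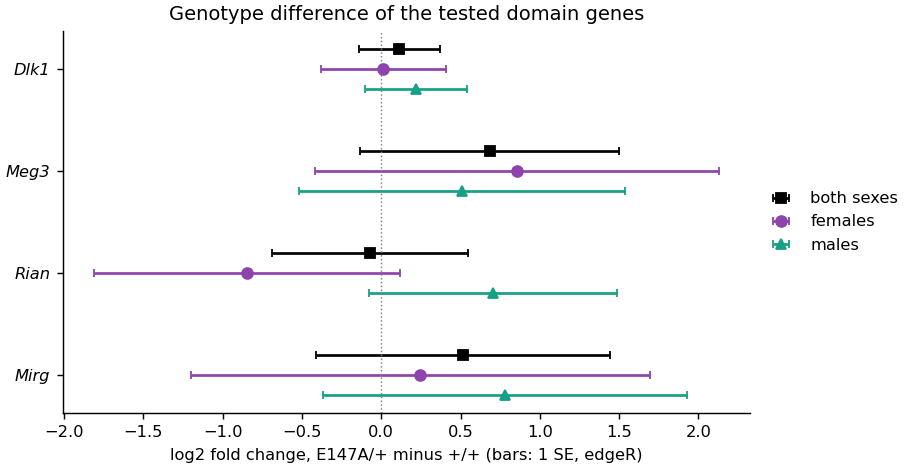
Log2 fold change of E147A/+ against +/+ (x axis) for 4 domain genes over both sexes, in females and in males, with bars of 1 SE from edgeR. The bars of each of the 4 genes cross 0 in all 3 contrasts.

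Litter differed for Meg3 in the raw levels but not past the threshold over all genes. The 4 cultures of litter 1 had Meg3 at 25.7 to 55.5 CPM and the 4 of litter 3 at 2.16 to 13.8 CPM, with no overlap, as for 11.4% of all tested genes that were higher in litter 1. In an edgeR fit with litter, sex and genotype as terms, added after the levels were seen, the log2 difference of litter 1 minus litter 3 was 2.27 (SE 0.74, unadjusted p = 0.0164, adjusted p = 0.128), in a comparison that called 3.16% of tested genes. Without female +/+ replicate 2 the adjusted p of Meg3 was 0.0461 in edgeR, and without male +/+ replicate 2 its log2 difference was 1.497 with an adjusted p of 0.462. The other domain genes had differences of 0.44 (SE 0.98) for Mirg, 0.10 (SE 0.31) for Dlk1 and -0.12 (SE 0.77) for Rian, with an adjusted p of 0.833 or more in edgeR.

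Relative to Rian, Meg3 did not overlap between litters 1 and 3. The ratio of Meg3 to Rian counts was 2.01, 1.78, 1.89 and 2.08 in the cultures of litter 1 and 0.707, 0.531, 0.305 and 0.496 in those of litter 3, although litter 3 held both high and low cultures for these genes. It was 1.15 in the culture of litter 2 and 0.685 in that of litter 4. The log2 ratio averaged 0.95 ± 0.10 (SD, n = 4) in litter 1 and -1.03 ± 0.50 (SD, n = 4) in litter 3, a difference of 1.99 (two-sided exact permutation p = 0.0286, the smallest that 4 against 4 can give). Over all 6 ratios of the 4 genes the adjusted p was 0.0571 in these exact tests, and over the 3 ratios without Mirg, a family chosen after the values were seen, it was 0.0429. Over all 17109 other tested genes, the ratio to Rian was separated with litter 1 higher for 0.503%, and the ratio of Meg3 to the other gene was separated that way for 78.8%, so a separated ratio to Meg3 was common. The ratio of Meg3 to Dlk1 was separated too, with a log2 difference of 2.58 (two-sided exact permutation p = 0.0286). Over the 17109 other tested genes, the ratio to Dlk1 was separated with litter 1 higher for 4.03% and lower for 10.4%. Of the 3 ratios to Mirg, that of Rian to Mirg was separated with litter 1 lower (exact permutation p = 0.0286). In raw counts it was 27.75 to 54.8 in litter 1. In litter 3 it was 67.4 in female +/+ replicate 2 and 56.3 in male E147A/+ replicate 3. Female +/+ replicate 1 and male +/+ replicate 3 had 123 and 129 Rian counts beside 1 and 0 of Mirg. The separation thus does not need the added count, but the size of the log2 difference rests on it. The litter comparison of ratios was chosen after the values were seen. Between genotypes the log2 ratio of Meg3 to Rian was 0.25 ± 1.14 (SD, n = 5) in E147A/+ and -0.38 ± 0.83 (SD, n = 5) in +/+ (two-sided exact permutation p = 0.357).

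**Figure D4:**
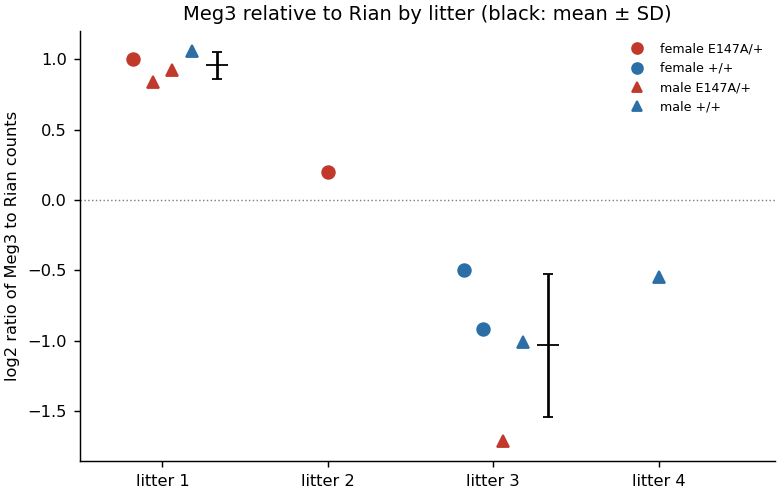
Log2 ratio of Meg3 to Rian counts in each culture (y axis) by litter (x axis), with the mean ± SD of litters 1 and 3 in black. All 4 cultures of litter 1 lie above 0 and all 4 of litter 3 below it, with both genotypes in each.

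Litter 1 held 3 E147A/+ and 1 +/+ culture and litter 3 held 1 and 3, so litter and genotype overlap in part. Markers of mesenchyme and pericytes did not overlap between these litters, by a narrow gap. The 7 genes summed to 5.26 to 11.6 CPM in litter 1 and 11.97 to 30.04 CPM in litter 3. The 5 endothelial genes summed to 0.670 to 2.38 CPM and 2.83 to 4.12 CPM. Of these genes, Dcn, Lum, Cldn5, Cdh5 and Tek had a lowest value of 0 CPM over the 10 libraries. Sums of the neural stem cell, neuronal, astrocyte, oligodendrocyte lineage and microglial markers overlapped between the litters. The share of all tested genes that were lower in litter 1 without overlap is not given here, so these gaps have no background. The part of mesenchymal and endothelial cells in the Meg3 difference was not tested. In bulk RNA, fewer cells of a type and less RNA per cell cannot be told apart.

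The allelic counts of the noncoding RNAs were almost all from the 129 side, which in this cross is the maternal one. In the 3 female cultures that carried both strains around the domain, Meg3 had 0 Cast counts of 42 in E147A/+ replicate 2, 0 of 14 in +/+ replicate 1 and 0 of 127 in +/+ replicate 2. Rian had 0 of 87, 0 of 74 and 2 of 637, the last a Cast share of 0.314% (95% Wilson interval 0.0861% to 1.14%). Mirg had 0 of 2, 0 of 1 and 0 of 7. With a floor of 3 counts, a count of 0 allows a Cast share of up to 7.14% for Meg3 in E147A/+ replicate 2, 21.4% in +/+ replicate 1 and 2.36% in +/+ replicate 2, and 3.45% and 4.05% for Rian in the first 2 of these cultures, and the upper 95% Wilson limits of the same shares are 8.38%, 21.5% and 2.94% for Meg3 and 4.23% and 4.93% for Rian. Summed over the noncoding RNAs and the 3 cultures, 2 of 991 allelic counts were Cast, or 0.202% (0.0554% to 0.733%). By culture this was 0 of 131 and 0 of 89 in the 2 cultures with low levels of these RNAs and 2 of 771 in the one with high levels. Intervals and floors cover counting error only.

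Dlk1 was counted from both alleles. Cast made up 5 of 24 counts in E147A/+ replicate 2, or 20.8% (9.24% to 40.5%), 5 of 18 in +/+ replicate 1, or 27.8% (12.5% to 50.9%), and 13 of 22 in +/+ replicate 2, or 59.1% (38.7% to 76.7%). The middle value was under the minimum of 20 allelic counts. In the 3 cultures together, 23 of 64 counts were Cast, or 35.9% (25.3% to 48.2%), so 41 counts were assigned to 129. The 3 intervals overlap, but those of E147A/+ replicate 2 and +/+ replicate 2 only from 38.7% to 40.5%. Whether the 3 shares differ was not tested, and the interval of the sum does not cover spread between cultures. Rtl1 had 1 allelic count, from 129, in +/+ replicate 2, and Dio3 had none.

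The 12 listed neighbours with at least 20 allelic counts, among them the transcription factor gene Yy1 and the scaffold gene Begain, had Cast shares of 17.9% to 61.5%. Begain was at 61.5%, 45.0% and 44.4% Cast in the 3 cultures, and Yy1 at 47.2%, 48.9% and 48.7%. Of 68 genes within 5 Mb with at least 20 allelic counts in each of the 3 cultures, domain genes included, Rian alone was below 5% Cast in all 3, and Meg3 missed that count minimum in 1 culture. Female E147A/+ replicate 1 had 286 Meg3, 314 Rian and 32 Dlk1 allelic counts, all from 129, and its shares are not read by parent of origin because the genes near the domain showed almost no Cast there. With 1 E147A/+ culture carrying both strains, shares could not be compared between genotypes.

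**Figure D5:**
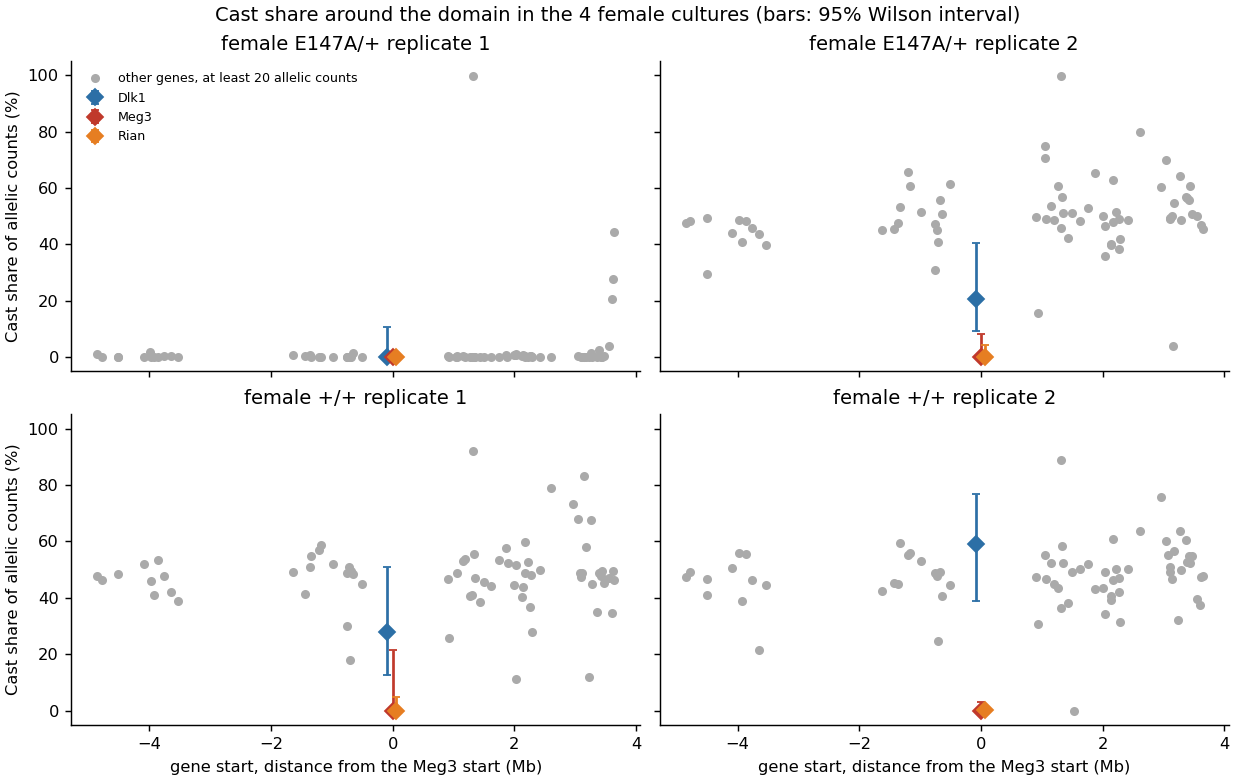
Cast share of allelic counts in percent (y axis) for genes within 5 Mb by distance of the gene start from the Meg3 start in Mb (x axis), 1 panel per female culture. Meg3 and Rian lie at or near 0 in the 3 cultures whose other genes have medians of 47.8% to 49.1%, Dlk1 lies at 20.8% to 59.1% in them, and bars are 95% Wilson intervals (Meg3 and Dlk1 in +/+ replicate 1 have under 20 counts).

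Genes around the domain and genes that act on it did not pass the test between genotypes. Of 123 neighbours and rows within the span, 13 were tested and 0 were called by edgeR or DESeq2, with 0 at an unadjusted p under 0.05. Of all 17110 tested genes, 0.0818% were called and 5.9% had such an unadjusted p in edgeR, and 0.66% and 7.29% in DESeq2, and these shares are the background for each of the lists. The neighbours' median log2 fold change over both sexes was -0.12, beside -0.01 over all genes. The lowest p was that of Begain, which encodes a postsynaptic protein, at 0.53 (SE 0.28, adjusted p = 0.821 in edgeR). The next were Wdr20 at -0.21, the dynein gene Dync1h1 at -0.27, the chaperone gene Hsp90aa1 at -0.18 and Slc25a47 at 0.25.

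Among 17 regulators of imprints, 16 were tested and 0 were called by edgeR or DESeq2, with 2 at an unadjusted p under 0.05, and the median was -0.0017 beside -0.01. Those 2 were Smchd1, at -0.42 (SE 0.15, adjusted p = 0.786 in edgeR), and Zfp57, whose product maintains methylation at imprints, at 0.85 (SE 0.33, adjusted p = 0.803). With litter as a covariate Zfp57 was at 0.30, and its difference of litter 1 minus litter 3 was 1.12 (adjusted p = 0.0558 in edgeR). Tet2, a methylcytosine oxidase gene, was at 0.18.

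Of 13 symbols listed for the imprinted gene network, 11 matched and were tested, and 0 were called by edgeR or DESeq2, with 1 at an unadjusted p under 0.05 and a median of -0.09. That 1 was Ndn, a paternally expressed growth suppressor, at 0.63 (SE 0.17, unadjusted p = 0.0039, adjusted p = 0.547 in edgeR). The proteoglycan gene Dcn was at -1.30, with a range of -2.67 to -0.83 without 1 library in the 8 of 10 such fits where it passed the filter, and the cell cycle inhibitor gene Cdkn1c at -0.69.

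In the Notch list, 0 of 12 were called by edgeR or DESeq2, with 2 at an unadjusted p under 0.05 in edgeR and 4 in DESeq2, and a median of -0.01. The ligand gene Dll3 was at -1.19 (SE 0.40, adjusted p = 0.732 in edgeR), the effector gene Hey1 at -0.52 and Hes1 at 0.63. In the thyroid hormone list, 0 of 7 tested were called by edgeR or DESeq2, with 0 at an unadjusted p under 0.05 and a median of 0.05. The hormone-responsive genes Hr and Klf9 were at -0.59 and 0.12, and Dio2, which activates thyroid hormone, was at -0.46.

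The genes whose log2 CPM followed a domain gene most closely over the 10 cultures are given as a description, since all points share libraries and depth. For Meg3 they were Nsun6 (Pearson's r 0.98), Gpr26 and 2510002D24Rik, for Rian Rab6b (0.99), Emx1 and Slc6a15, for Mirg Dnm1 (0.99), Isoc2a and 9330102E08Rik, and for Dlk1 Chd5 (0.95), Efcab14 and Rpl10-ps3, out of 17106 genes. Likeness was common for the noncoding RNAs, since 122 genes had r above 0.9 with Meg3, 260 with Rian and 308 with Mirg, against 16 with Dlk1, and these r span both ranges of culture levels. None of these 12 genes is on chromosome 12.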

How the data were processed

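Raw gene counts were deposited for 10 libraries, with counts split by 129 and Cast allele for the 4 female ones, as the file headers show. Per the labels' protocols, libraries were stranded poly(A) libraries read in 80-base pairs. Per the submitters' processing notes, Trim Galore 0.4.4, HISAT2 2.0.5, featureCounts, R 3.5.1, edgeR 3.24.0 and GRCm38 were used, but strand use, allele assignment and the handling of C57 reads are not given in the sources used here. Depth was 20648916 to 44519020 counts. CPM used library totals after the filter on low counts and TMM scaling, by which 3 counts are 0.0693 to 0.141 CPM.

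Of 52632 genes, 17110 passed filterByExpr. The quasi-likelihood test of edgeR 4.0.16 (R 4.3.3) was run after TMM scaling with 1 mean per group over 10 libraries, 6 residual degrees of freedom and Benjamini-Hochberg adjustment at 0.05. The litter fit left 4 residual degrees of freedom. The SE of a log2 difference was taken as its size over the root of the F statistic. Log2 CPM used a prior count of 2 and ratios an added count of 0.5 on the log2 scale. RPKM used union exon lengths from GENCODE. A female library carried both strains where the median Cast share of other genes within 5 Mb was 35% to 65%, and shares needed 20 allelic counts. The fit was tested on simulated data.

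All 6 domain genes are described. Other genes named are the lowest p over both sexes, up to 5 neighbours and 3 of each other list, plus the 3 closest in r to each domain gene; Yy1 and the marker genes were named outside it. The domain genes and lists were chosen with earlier results of these data known. Alternatives were RLE normalisation, no filter, 10 counts in every library, litter as a covariate, replicate blocks, only the groups compared, DESeq2 1.42.0, other allelic minimums and windows, and leaving out each library. Replicates are separate embryos, some of 1 litter.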

Additional observations from a re-analysis of the deposited data

How the results depend on the processing

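Across the 16 genotype results of the 4 domain genes, 0 of 288 fits passed the threshold, the lowest adjusted p being 0.630 in edgeR or DESeq2, so the signs given here are those of estimates that no fit called. With litter as a covariate the log2 difference over both sexes was -0.21 for Meg3, 0.27 for Rian, -0.071 for Hes1, 0.075 for Hr, -0.016 for Klf9 and 0.30 for Dio2, that in females -0.084 for Dlk1 and -1.23 for Meg3, and the interaction of Meg3 -2.04. In males Mirg moved from 0.78 to 1.77, Rian from 0.71 to 1.19 and Meg3 from 0.51 to 0.81, and over both sexes Mirg moved from 0.51 to 0.98, Dcn from -1.30 to -2.71, Cdkn1c from -0.69 to -0.31, Dync1h1 from -0.27 to -0.063 and Tet2 from 0.18 to 0.072, while the interaction moved from -0.54 to -1.57 for Mirg and from -0.20 to -0.35 for Dlk1. In males, numbers 2 and 3 each join littermates, and the other same-numbered pairs do not; the correlation of deviations of same-numbered libraries was -0.304 in females and -0.238, 0.416 and 0.0341 in males. With the replicate block Rian was at 0.19 over both sexes and the interaction of Meg3 at -0.42, with 5 genes called over both sexes, 0 in females and 2 in males. That block moved Meg3 in males from 0.51 to 1.17 and Mirg in males from 0.78 to 1.24. In females it moved Rian from -0.85 to -0.54 and Mirg from 0.25 to 0.15. The Mirg interaction moved from -0.54 to -1.09, and over both sexes Cdkn1c moved from -0.69 to -0.40 and Dio2 from -0.46 to -0.77. A block with the female pairs crossed, added after seeing the data, gave 6 and 0 calls over both sexes and in females, Rian at 0.19 and the Meg3 interaction at -0.38.

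The number of genes called of all tested was 14 over both sexes, 2 in females, 4 in males and 0 for the interaction. It was 33, 8 and 14 in the first 3 without a filter, 9 over both sexes with 10 counts in every library, 3, 0, 2 and 1 with litter as a covariate, 1 in females and 1 in males with only the groups compared, and 113, 46, 48 and 2 in DESeq2. Leaving out 1 library gave 2 to 12, 0 to 2, 1 to 4 and 0 to 1. For litter 1 against litter 3 the count was 541, but 19 with 1 mean per group, 0 in males (edgeR, 2929 at an unadjusted p under 0.05; DESeq2 was not run) and 4 to 1290 without 1 library, 4 of them without male E147A/+ replicate 3 and 1290 without male +/+ replicate 3.

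Leaving out 1 library moved the estimates over both sexes between -0.21 and 1.48 for Meg3, -0.63 and 0.90 for Rian, -0.66 and 1.82 for Mirg, -2.18 and 0.023 for Dio2, -1.01 and 0.0061 for Cdkn1c, -2.67 and -0.83 for Dcn (8 of 10 fits), -0.40 and -0.086 for Dync1h1, -0.75 and -0.32 for Hey1, -1.45 and -0.78 for Dll3, 0.030 and 0.22 for Dlk1, -0.26 and -0.077 for Hsp90aa1, 0.13 and 0.37 for Slc25a47, -1.13 and -0.27 for Hr, 0.0091 and 0.26 for Klf9, 0.081 and 0.30 for Tet2, 0.34 and 0.70 for Begain, and -0.27 and -0.14 for Wdr20. In females they lay between -0.18 and 0.23 for Dlk1, -0.93 and 2.44 for Meg3, -1.98 and 1.09 for Rian and -2.12 and 2.86 for Mirg, in males between -0.033 and 1.77 for Meg3, 0.23 and 1.05 for Rian, 0.18 and 1.56 for Mirg and 0.12 and 0.29 for Dlk1, and in the interaction between -0.41 and 0.011 for Dlk1, -1.45 and 1.93 for Meg3, -2.70 and 0.38 for Rian and -2.92 and 2.07 for Mirg. Where a group was left with 1 library, that library was assumed to vary like the others. The litter difference without 1 library was 1.497 to 3.47 for Meg3, -1.11 to 1.48 for Rian and -0.63 to 2.26 for Mirg, and that of Rian was 0.43 with 1 mean per group and 0.43 in males. The litter difference of the log2 ratio of Meg3 to Rian was 2.30 in males (two-sided exact p = 0.1, the smallest possible) and 1.76 to 2.16 without 1 library. Within the 7 high cultures r without 1 library was -0.27 to 0.78 for Dlk1 and Rian, -0.46 to 0.13 for Meg3 and Rian and -0.57 to 0.32 for Meg3 and Mirg. The cause of these changes was not tested.

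Under a 2 Mb window the same 3 female cultures counted as carrying both strains. A minimum of 50 allelic counts left no share for Dlk1 and left Meg3 in 1 culture only. Neither choice can alter a share itself. Mirg did not pass 10 counts in every library, and the relation on deviations from group means was not run. Mirg rests on 0 to 23 counts per library and Rtl1 on at most 2.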

Other observations

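Zfp445, which encodes a second zinc finger protein of imprint maintenance and was named after its value was seen, was higher in litter 1 than in litter 3 by 0.77 on the log2 scale, with an adjusted p of 0.0232 in edgeR in a comparison that called 3.16% of tested genes. The adjusted p ranged from 0.0161 to 0.239 over 12 alternatives and missed the threshold in 7 of them. In the same comparison 3 of the 12 genes of the Notch list were called, all higher in litter 1: the effectors Hes1 by 1.15 (adjusted p = 0.0141 in edgeR) and Hes5 by 1.67 (0.0418), and the Dlk1 relative Dlk2 by 1.79 (0.0488). Over the 12 alternatives their adjusted p ranged from 0.0116 to 0.179, 0.0216 to 0.225 and 0.0443 to 0.315, and missed the threshold in 7, 9 and 9 of them.

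Rows between Dlk1 and Dio3 other than the 6 domain genes numbered 110, of which 18 held any count and 1, Gm3379, passed the filter on low counts.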
